A study of Mus musculus with 10 samples.

Results

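The 9 genes described here take up, store, release or sense iron. They were taken as the rows with the symbols *Tfrc*, *Steap3*, *Slc11a2*, *Fth1*, *Ftl1*, *Ncoa4*, *Slc40a1*, *Aco1* and *Ireb2* among the 43346 genes in the table of raw read counts, and all 9 were found. The genes were proposed with the differences between each knockout and wildtype already known. Their levels and fold changes are therefore a description, without p-values.

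Poly-A RNA was sequenced from mouse O9-1 cells, a line derived from the cranial neural crest, the embryonic tissue that gives rise to much of the face. There were 4 biologically independent wildtype samples, 3 clones with a Kat5 knockout and 3 clones with an Ep400 knockout, hereafter wildtype, Kat5 ko and Ep400 ko. *Kat5* codes for a histone acetyltransferase and *Ep400* for an ATPase of the same chromatin-modifying complex. The question was how cells of the cranial neural crest change when either of these central subunits is missing. All cells grew on Matrigel in preconditioned medium, without any further treatment. O9-1 cells are tetraploid, and each knockout library is a separate clone grown from a single sorted cell after CRISPR/Cas9 editing. In the Kat5 ko clones, the edits were predicted to shift the reading frame in every allele. The same held for clone Ep400/1, while Ep400/2 and Ep400/3 also carried alleles with short in-frame deletions.

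Most cells import iron bound to transferrin. The transferrin receptor carries it into endosomes, a reductase of the Steap family reduces it there, and the transporter Slc11a2 (DMT1) moves it into the cytosol. Surplus iron is held in ferritin, a shell of heavy (Fth1) and light (Ftl1) chains that Ncoa4 delivers for breakdown when iron is needed, while Slc40a1 (ferroportin) exports it. The iron regulatory proteins Aco1 (IRP1) and Ireb2 (IRP2) bind iron-responsive elements, which are hairpins in mRNA. When iron is scarce, their binding in a 5′ UTR blocks translation and their binding in a 3′ UTR protects the mRNA from decay.

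The hairpins of one common form are shown, since iron regulatory proteins bind such elements. A search of the annotated UTRs (GENCODE on GRCm38, the mm10 build) was made for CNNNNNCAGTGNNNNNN, in which the 5 bases after the bulged C had to pair with the 5 bases after the loop CAGTGN, G–U pairs included. It found 1 match in each of the 5′ UTRs of *Fth1*, *Ftl1* and *Slc40a1* and 4 matches in the 3′ UTR of *Tfrc*. Of all genes with an annotated 5′ UTR, 0.148% held a match there (31 of 20916), and of those with a 3′ UTR 0.613% (129 of 21045). In the windows of 30 bases that follow, written as DNA from 5′ to 3′, capitals mark the loop.
*Fth1*, 5′ UTR, chr19:9982731-9982760, plus strand: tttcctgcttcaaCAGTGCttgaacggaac
*Ftl1*, 5′ UTR, chr7:45459779-45459808, minus strand: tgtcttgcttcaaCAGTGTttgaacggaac
*Slc40a1*, 5′ UTR, chr1:45925465-45925494, minus strand: ccaacttcagctaCAGTGTtagctaagttt
*Tfrc*, 3′ UTR, chr16:32631218-32631247, plus strand: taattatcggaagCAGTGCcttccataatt
*Tfrc*, 3′ UTR, chr16:32631597-32631626, plus strand: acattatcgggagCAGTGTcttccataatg
*Tfrc*, 3′ UTR, chr16:32631662-32631691, plus strand: tctatatcggagaCAGTGAtctccatatgt
*Tfrc*, 3′ UTR, chr16:32631709-32631738, plus strand: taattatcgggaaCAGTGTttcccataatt

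The loop in *Fth1* begins 126 bases before the coding sequence, that of *Ftl1* 164 and that of *Slc40a1* 218 bases before it, while the *Tfrc* loops begin 895, 1274, 1339 and 1386 bases past the stop codon. No match to these letters was found in the UTRs of the other 5 genes. The search admits only this loop and an unbroken stem, so a gene without a match may still hold an element of another form. Among further iron genes, *Alas2* had a match in the 5′ UTR and *Bola3* in the 3′ UTR.

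Between 30968945 and 48301792 reads per library were counted on genes. *Kat5* was at 48.8 to 57.5 CPM (counts scaled to the size of the library) in wildtype and at 22.9, 16.4 and 23.2 in the Kat5 ko clones, and *Ep400* was at 157 to 165 CPM in wildtype and at 54.7, 61.4 and 59.7 in the Ep400 ko clones. Each targeted mRNA thus lay below the wildtype range in all clones of its own knockout. Markers of the neural crest summed to 726 to 906 CPM in wildtype, 900 to 1118 in Kat5 ko and 973 to 1092 in Ep400 ko, although *Sox10* had no count in any library. *Cd44* gave most of this sum, with 326 to 532 CPM in wildtype, 557 to 674 in Kat5 ko and 471 to 658 in Ep400 ko. *Tfap2a* and *Snai2* were called higher in Ep400 ko by edgeR (log2-fold changes of 1.37 and 0.86), whereas *Nt5e* was lower there (−1.58, adjusted p = 0.0350 by edgeR) and *Thy1* had no count in the Kat5 ko clones. Markers of neurons summed to 2.97 to 5.08 CPM in wildtype, 1.65 to 10.1 in Kat5 ko and 5.17 to 22.9 in Ep400 ko, where *Tubb3* rose (1.83, adjusted p = 0.0374 by edgeR). Markers of glia summed to 3.55 to 6.10, 1.84 to 3.55 and 1.97 to 6.72 CPM, and *Mbp* was lower in Ep400 ko (−3.26). *Mbp* entered that fit only through the wildtype samples, with 72 to 132 raw counts there against 4 to 20 in Ep400 ko. Its value is therefore a description. The 7 markers of red blood cells were below 1 CPM in every library, as were 4 of 6 macrophage markers. Clone Kat5/1 stood apart. Markers of smooth muscle summed to 685 CPM there, with *Acta2* at 504, against at most 58.8 in all other libraries, and the part of any of these markers in the values below was not tested. Without this clone, the number of genes called between Kat5 ko and wildtype rose from 84 to 2654. Several of the Kat5 ko values below are therefore given with and without it. In RNA from bulk cultures, fewer cells with an mRNA and less of it in each cell cannot be told apart.

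*Tfrc*, the transferrin receptor (ENSMUSG00000022797, chromosome 16 from 32608920 to 32632794), was at 71.1, 59.1, 61.6 and 90.2 CPM in the wildtype samples. The Kat5 ko clones had 218, 317 and 296 CPM in the order of their numbers, and the Ep400 ko clones 63.9, 60.4 and 23.6. All Kat5 ko clones thus lay far above all wildtype samples, whereas only Ep400/3 among the Ep400 ko clones fell outside the wildtype range, and it fell below. Relative to the wildtype mean of 70.5 ± 14.1 CPM (SD, n = 4), the mean was 393% in Kat5 ko (277 ± 51.8 CPM, SD, n = 3) and 69.9% in Ep400 ko (49.3 ± 22.3 CPM, SD, n = 3). The log2-fold change was 1.94 (SE 0.20) for Kat5 ko and −0.52 (SE 0.33) for Ep400 ko. *Tfrc* was the sole member of the 9 past the threshold (edgeR's quasi-likelihood test, p adjusted over all genes, at most 0.05) in the Kat5 ko comparison (1 of 8 tested). For the 9 genes this threshold is a label and no test, since they were chosen from the same contrasts. In that comparison 0.625% of all 13434 tested genes were called, and 9.66% had all clones above all wildtype samples. The count was 0 without wildtype sample 1, wildtype sample 4 or clone Kat5/3, and 3 without clone Kat5/1. Leaving out 1 library at a time kept the log2-fold change of *Tfrc* between 1.85 and 2.10.

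*Steap3*, the reductase of transferrin endosomes (ENSMUSG00000026389, chromosome 1 from 120190757 to 120272705), was at 103, 83.7, 72.8 and 98.5 CPM in wildtype. The Kat5 ko clones had 84.4, 32.1 and 55.7 CPM and the Ep400 ko clones 129, 179 and 145. Its order was thus opposite to that of *Tfrc*, with all Ep400 ko clones above all wildtype samples, Kat5/2 and Kat5/3 below them, and Kat5/1 within their range. The log2-fold change was 0.75 (SE 0.17) for Ep400 ko, and between 0.59 and 0.85 with 1 library left out. It was −0.67 (SE 0.30) for Kat5 ko, −1.06 without clone Kat5/1 and −0.38 without Kat5/2.

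*Slc11a2*, which carries ferrous iron out of the endosome (ENSMUSG00000023030, chromosome 15 from 100387898 to 100425072), varied widely among the wildtype samples, with 44.8, 69.7, 71.1 and 45.5 CPM. The Kat5 ko clones had 60.2, 85.1 and 96.0 CPM and the Ep400 ko clones 63.1, 46.3 and 68.5. Clones Kat5/2 and Kat5/3 lay above the wildtype range and the other 4 clones within it. Log2-fold changes were 0.45 (SE 0.23) for Kat5 ko and 0.04 (SE 0.23) for Ep400 ko. The Kat5 ko value was 0.62 without clone Kat5/1 and 0.31 without Kat5/3.

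**Figure D1:**
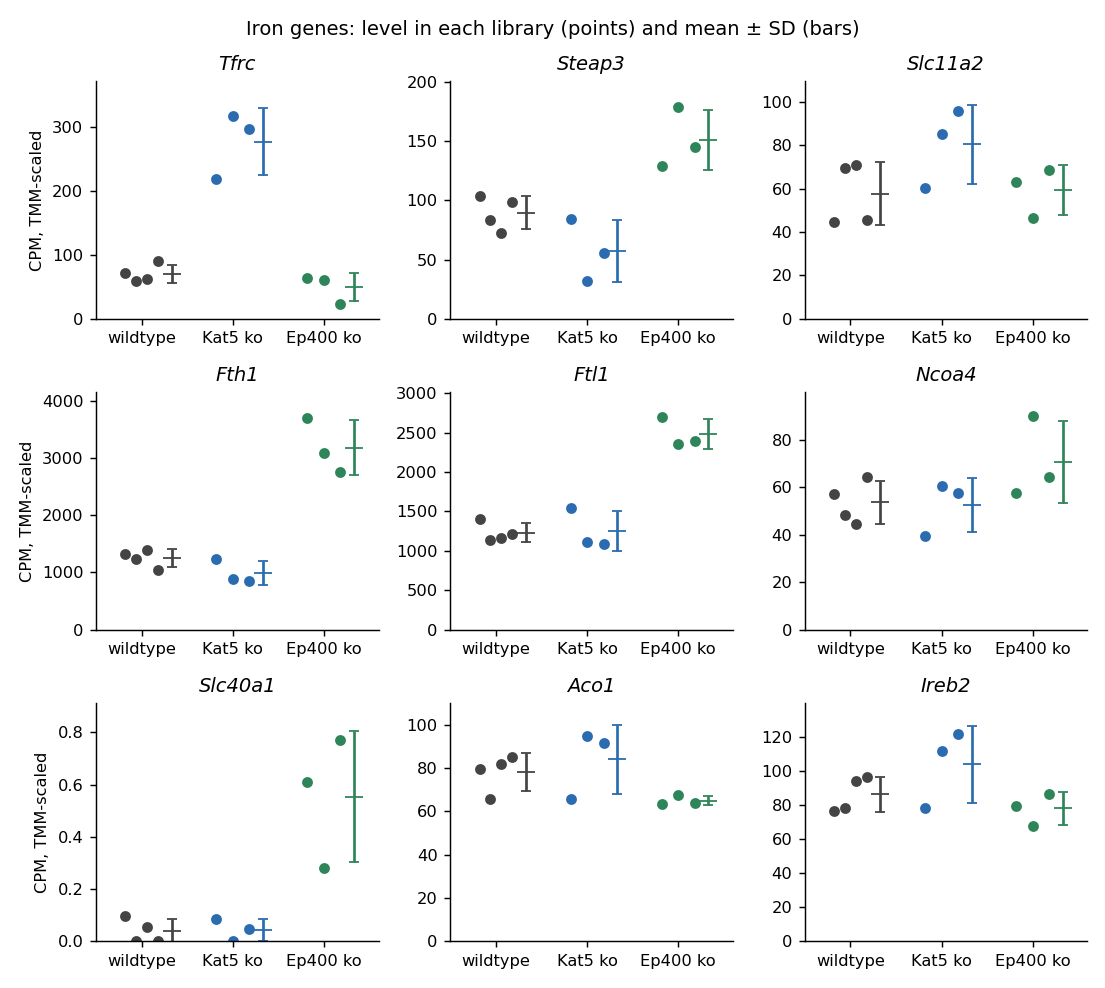
Level of each of the 9 genes (y axis, CPM after TMM scaling, starting at 0) in the 4 wildtype samples, 3 Kat5 ko clones and 3 Ep400 ko clones (points, in the order of their numbers), with the mean and SD of each group as a bar beside them. *Tfrc* stands high in Kat5 ko, *Fth1*, *Ftl1*, *Steap3* and *Slc40a1* stand high in Ep400 ko, and *Slc11a2*, *Ncoa4*, *Aco1* and *Ireb2* overlap between the groups or differ little.

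*Fth1*, the ferritin heavy chain that oxidizes iron for storage (ENSMUSG00000024661, chromosome 19 from 9980598 to 9985098), was at 1326, 1240, 1401 and 1048 CPM in wildtype. The Ep400 ko clones had 3695, 3083 and 2761 CPM, all above all wildtype samples. The Kat5 ko clones had 1228, 891 and 846 CPM, with Kat5/2 and Kat5/3 below the wildtype range. The mean rose to 254% of wildtype in Ep400 ko (3180 ± 474 CPM, SD, n = 3, against 1254 ± 152, SD, n = 4) and was 78.8% of it in Kat5 ko. The log2-fold change was 1.34 (SE 0.18) for Ep400 ko and −0.37 (SE 0.18) for Kat5 ko. The Kat5 ko value was −0.56 without clone Kat5/1 and −0.26 without Kat5/3.

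*Ftl1*, the light chain (ENSMUSG00000050708, chromosome 7 from 45457944 to 45459884), followed the heavy chain in Ep400 ko. It was at 1404, 1140, 1161 and 1220 CPM in wildtype and at 2704, 2356 and 2390 CPM in the Ep400 ko clones, without overlap. The Kat5 ko clones had 1544, 1111 and 1094 CPM, on both sides of the wildtype range. The mean in Ep400 ko was 202% of wildtype, with a log2-fold change of 1.01 (SE 0.15). For Kat5 ko the log2-fold change was −0.01 (SE 0.17), and its sign changed with the normalization.

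*Ncoa4*, the receptor that takes ferritin to autophagosomes (ENSMUSG00000056234, chromosome 14 from 32159865 to 32179855), was at 57.3, 48.1, 44.7 and 64.1 CPM in wildtype, 39.5, 60.3 and 57.7 in the Kat5 ko clones and 57.5, 90.0 and 64.3 in the Ep400 ko clones. All groups overlapped, although Ep400/2 was well above every other library. The log2-fold change was 0.40 (SE 0.20) for Ep400 ko and 0.16 without that clone. *Ncoa4* shares 17.9% of its 50-base windows with *Gm6768*, on which 241 to 492 reads per library were counted, so that reads may have been divided between them.

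*Slc40a1*, the iron exporter ferroportin (ENSMUSG00000025993, chromosome 1 from 45908068 to 45926523), was close to absent. Its raw counts were 3, 0, 2 and 0 in the wildtype samples, 3, 0 and 2 in the Kat5 ko clones and 26, 9 and 31 in the Ep400 ko clones. Every Ep400 ko clone thus had more reads than any other library, at a level of 0.281 to 0.771 CPM. Summed over the libraries of a group and scaled to their depth, the ratio to wildtype was 17.2 for Ep400 ko (66 against 5 counts, 95% interval 7.0 to 54.7) and 1.33 for Kat5 ko (5 against 5 counts, 0.307 to 5.80). These exact intervals cover counting error only. The gene entered the fit only through the Ep400 ko clones in which it was high, so that its fitted log2-fold change of 3.89 is no test, and it was not fitted in the Kat5 ko comparison.

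With these, 4 of the 9 genes were past the threshold in Ep400 ko (*Fth1*, *Ftl1*, *Steap3* and *Slc40a1*), all with higher levels. *Slc40a1* is among them only through the filter on low counts. The count was 2 without wildtype sample 2, 3 or 4. In this comparison 13.7% of the 13836 tested genes were called, 8% with higher levels, and 16.1% had all Ep400 ko clones above all wildtype samples. Since the genes were chosen from these contrasts, nothing is read from the counts.

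**Figure D2:**
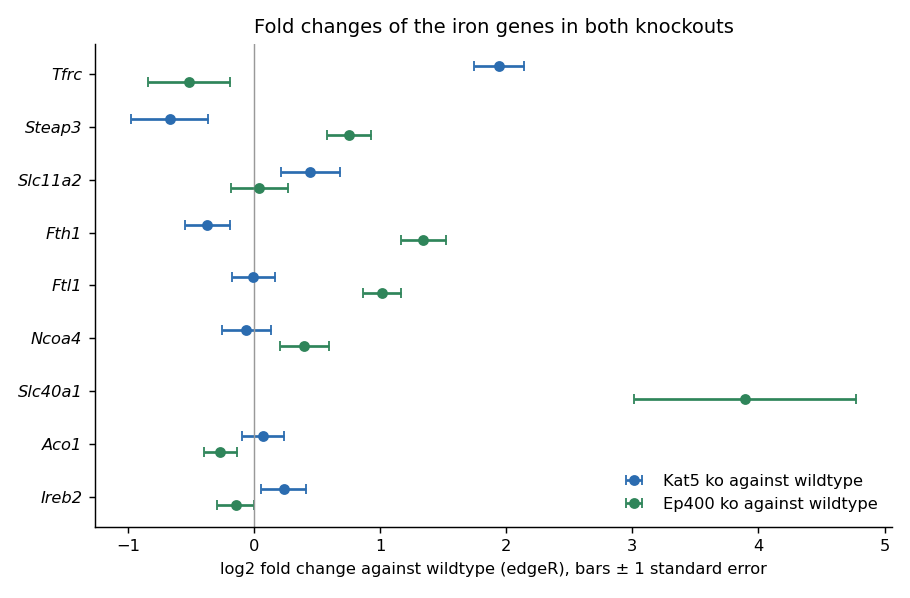
Log2-fold change against wildtype (x axis) from edgeR's quasi-likelihood fit for the 9 genes (y axis), with bars of 1 standard error, for Kat5 ko in blue and Ep400 ko in green. *Tfrc* lies at 1.94 in Kat5 ko and −0.52 in Ep400 ko, *Fth1* at −0.37 and 1.34, and *Steap3* at −0.67 and 0.75, and *Slc40a1* has a value for Ep400 ko only because its counts were too low in the other comparison.

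Neither iron sensor passed the threshold in any comparison. *Aco1*, which is a cytosolic aconitase when it holds an iron-sulfur cluster and binds RNA when it does not (ENSMUSG00000028405, chromosome 4 from 40143081 to 40198338), was at 79.6, 65.6, 81.9 and 85.4 CPM in wildtype, 65.7, 94.8 and 91.6 in the Kat5 ko clones and 63.4, 67.3 and 63.9 in the Ep400 ko clones. Clones Ep400/1 and Ep400/3 lay below the wildtype range, Kat5/2 and Kat5/3 above it, and Kat5/1 and Ep400/2 within it near its lowest sample. Log2-fold changes were 0.07 (SE 0.17) for Kat5 ko and −0.27 (SE 0.13) for Ep400 ko. The Kat5 ko value was 0.22 without clone Kat5/1 and −0.010 without Kat5/2.

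*Ireb2*, the sensor that is degraded when iron is plentiful (ENSMUSG00000032293, chromosome 9 from 54863789 to 54912530), was at 76.5, 78.0, 93.9 and 96.2 CPM in wildtype. The Kat5 ko clones had 78.2, 111 and 122 CPM and the Ep400 ko clones 79.1, 67.7 and 86.4. Clones Kat5/2 and Kat5/3 were above the wildtype range and Ep400/2 below it, with log2-fold changes of 0.23 (SE 0.18) and −0.15 (SE 0.15). The Kat5 ko value was 0.40 without clone Kat5/1 and 0.12 without Kat5/3. Counts of mRNA do not show the RNA binding of either protein.

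The number of *Tfrc* reads per *Fth1* read, which needs no scaling between libraries, was 0.0536, 0.0477, 0.0439 and 0.0860 in wildtype. It was 0.178, 0.355 and 0.350 in the Kat5 ko clones and 0.0173, 0.0196 and 0.00854 in the Ep400 ko clones. The 3 groups did not overlap, with Kat5 ko above and Ep400 ko below wildtype. Both genes were chosen with these differences known, so the separation is a description and nothing is read from it. Both ferritin chains together took 0.229% to 0.276% of all counts in wildtype, 0.182% to 0.278% in Kat5 ko and 0.529% to 0.662% in Ep400 ko. Between the chains, 0.860 to 1.21 *Fth1* reads were counted per *Ftl1* read in wildtype, 0.773 to 0.802 in Kat5 ko and 1.16 to 1.37 in Ep400 ko. On this ratio, the Kat5 ko clones lay below all wildtype samples, and the Ep400 ko clones overlapped with wildtype through Ep400/3.

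**Figure D3:**
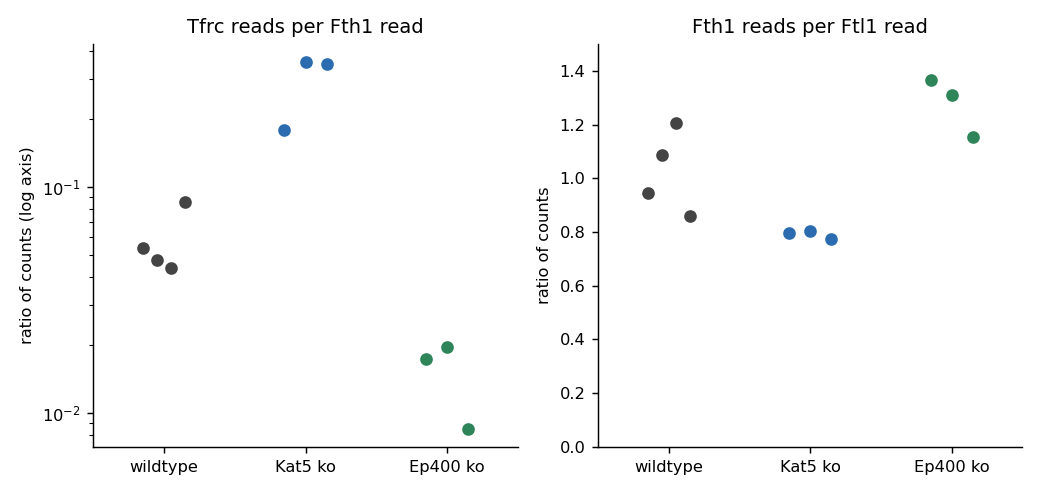
Ratio of raw counts within each library (points) for the 4 wildtype samples, 3 Kat5 ko clones and 3 Ep400 ko clones, as *Tfrc* reads per *Fth1* read on a log axis (left) and *Fth1* reads per *Ftl1* read on a linear axis from 0 (right). The left ratio spans 0.178 to 0.355 in Kat5 ko, 0.0439 to 0.0860 in wildtype and 0.00854 to 0.0196 in Ep400 ko without overlap, and the right ratio is lowest in Kat5 ko. The genes were chosen from these contrasts, so both ratios are descriptions.

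Levels of different genes were compared as RPKM, which divides the scaled counts by the length of the merged exons. In wildtype cells, *Ftl1* was the highest at 919 ± 89.5 RPKM (SD, n = 4), ahead of *Fth1* at 361 ± 43.8 (SD, n = 4), and their ranges did not overlap. In CPM the chains were about equal, and their order rests on merged exons of 1340 bases for *Ftl1* and 3469 for *Fth1*. Far below followed *Aco1* (17.4 RPKM), *Steap3* (15.7), *Tfrc* (11.4), *Ireb2* (9.09), *Slc11a2* (9.09), *Ncoa4* (5.72) and *Slc40a1* (0.00411). Neighbours from *Aco1* to *Slc11a2* overlapped in their ranges, and *Ncoa4* lay below *Slc11a2* without overlap. In Kat5 ko, *Tfrc* moved to the third place with 44.8 ± 8.38 RPKM (SD, n = 3), behind both ferritin chains at 932 and 285. In Ep400 ko, *Steap3* took that place with 26.4 ± 4.41 RPKM (SD, n = 3), while *Fth1* was at 917 and *Ftl1* at 1853.

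Set directly against each other, the Ep400 ko clones had less *Tfrc* than the Kat5 ko clones (log2-fold change −2.51, SE 0.40) and more *Fth1* (1.66, SE 0.26). These 2 of 8 tested members were past the threshold, where 7.05% of the 13587 tested genes were called. The values for *Steap3* (1.37, SE 0.35) and *Ftl1* (0.97, SE 0.24) were not, although all Ep400 ko clones lay above all Kat5 ko clones for both, as did those of 20.5% of all tested genes. Single libraries decided the count. It was 5 without clone Kat5/1, and 0 without Kat5/2, Kat5/3, Ep400/2 or Ep400/3.

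Both ferritin chains moved together over the 10 libraries, with a Pearson correlation of their log2 CPM of 0.95, and *Ireb2* and *Aco1* had one of 0.81. *Tfrc* ran against *Steap3* (−0.78) and *Fth1* (−0.71). All of these describe 10 libraries that fall into 3 groups and share their depth and scaling. Among the 14079 genes with sufficient counts, the patterns most like *Tfrc* were those of *Tmem194* and *Bora*, with correlations of 0.97 each. For *Fth1* they were *Slc35f6* and *Osgin1* (both 0.97), for *Ftl1* *Cttnbp2* and *Nr2f1* (both 0.99), and for *Steap3* *Cdc42bpg* (0.99) and *Scp2* (0.98).

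Medians of whole chromosomes were shifted in some libraries, which bears on *Fth1* and on other members. The median log2-fold change of all tested genes on chromosome 19 was −0.21 in Kat5 ko and 0.29 in Ep400 ko, in the direction of *Fth1* in either case. Relative to this median, *Fth1* was at −0.17 in Kat5 ko and 1.05 in Ep400 ko. For *Tfrc*, the median of chromosome 16 was 0.12 in Kat5 ko, which left 1.82. Wildtype sample 3, with a median log2 difference of −0.30 from the wildtype mean on chromosome 16, enters this value. For *Ftl1* on chromosome 7, the Ep400 ko value was 0.93 after a median of 0.08 was taken off. On chromosome 15, that of *Slc11a2*, the median log2 difference from the wildtype mean was −0.35 in Kat5/1, 0.04 in Kat5/2 and 0.22 in Kat5/3. It was 0.14 in wildtype sample 3. On chromosome 1, that of *Steap3*, it was −0.24 in Kat5/1. The cause of these shifts was not tested.

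In the RefSeq promoter windows on GRCm38, which reach from 250 bases before to 50 bases after a start site, 7 of the 9 genes were represented by 14 windows. The motif CACGTG, the E-box bound by MYC and its relatives, was in none of them, against 7.15% of all promoters. TGACNNNGC, the core of the antioxidant response element, searched on both strands, was in 1 window, of *Ncoa4*, against 12.4% of all promoters.

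Of 82 further genes of iron metabolism in the table, 68 were tested in Kat5 ko and 69 in Ep400 ko. They comprised genes for uptake and the transferrin cycle, iron chaperones and storage, export and hepcidin, iron sensing and other mRNAs with an iron-responsive element, mitochondrial iron and iron-sulfur clusters, and heme. In Kat5 ko, 0 of the 68 were called by edgeR's quasi-likelihood test and 18 had an unadjusted p of at most 0.05, as had 2996 of all 13434 genes. DESeq2 called 10 of the 68 and 1475 of all genes, and limma called 0 of the 68. Without clone Kat5/1, edgeR called 9 of the further genes and 2654 of all genes. The median log2-fold change of the 68 was −0.02, and that of all genes 0.00. In Ep400 ko, 6 genes were called higher and 3 lower among the 69, a share close to the 13.7% of all genes. The median was 0.08 for the list and 0.04 for all genes.

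The largest changes in Ep400 ko were those of a receptor and of an oxidase. *Scara5*, a receptor that can take up ferritin, was at 1.98, 0.578, 1.75 and 2.78 CPM in wildtype and at 76.5, 31.3 and 155 CPM in the Ep400 ko clones. It was at 0.744, 0.0659 and 0.551 CPM in the Kat5 ko clones. The log2-fold change was 5.62 (SE 0.64) in Ep400 ko (edgeR, Benjamini-Hochberg adjusted p = 0.00283) and between 4.91 and 5.99 without 1 library. In Kat5 ko it was −1.97 (SE 0.78), −2.49 without clone Kat5/1 and −1.47 without Kat5/2. This Kat5 ko value is a description, since *Scara5* passed the filter on low counts there only through the wildtype samples.

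*Heph* (hephaestin), the oxidase that works with ferroportin, had 0, 1, 2 and 8 raw counts in wildtype, 12, 2 and 3 in the Kat5 ko clones and 314, 39 and 156 in the Ep400 ko clones. All Ep400 ko clones exceeded all other libraries, as they did for *Slc40a1*, at 1.22 to 7.36 CPM. Like *Slc40a1*, it passed the filter only through these clones and was not fitted in the Kat5 ko comparison. Its fitted log2-fold change of 5.83 is therefore a description. It rests on few wildtype reads and was 7.03 without wildtype sample 4 and 5.13 without Ep400/1. *Cp* (ceruloplasmin), the related oxidase in plasma, was at 25.1, 29.5, 180 and 27.5 CPM in wildtype and at 61.4, 31.6 and 207 in Ep400 ko, so that 1 library of each group stood high, and its log2-fold change of 0.61 (SE 0.85) turned to −0.49 without Ep400/3.

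Among the other genes of uptake, *Steap1*, a relative of *Steap3*, fell by 2.05 on the log2 scale in Ep400 ko (SE 0.40, adjusted p = 0.0156 by edgeR). It was at 29.2, 51.8, 29.6 and 29.1 CPM in wildtype and at 13.6, 7.34 and 4.35 in the Ep400 ko clones. *Slc22a17*, the lipocalin receptor, had 6.93, 6.15, 16.7 and 4.22 CPM in wildtype and 2.75, 0.297 and 0.573 in the Kat5 ko clones, without overlap. Its log2-fold change of −2.83 (SE 0.83) in Kat5 ko did not pass the test (adjusted p = 0.111 by edgeR). Without clone Kat5/1 it was −4.29, and without wildtype sample 3 it was −2.26.

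In mitochondria, *Fdxr*, the reductase that supplies electrons for iron-sulfur clusters, fell by 1.16 on the log2 scale in Ep400 ko (SE 0.18, adjusted p = 0.00685 by edgeR). Its levels were 19.9, 20.6, 24.1 and 17.3 CPM in wildtype and 9.38, 8.56 and 9.50 in the Ep400 ko clones. *Slc25a37* (mitoferrin 1), which imports iron, rose by 0.97 (adjusted p = 0.0316 by edgeR), and the assembly factor *Isca1* by 0.54 (adjusted p = 0.0348 by edgeR). Thus 2 of the 28 tested genes for mitochondrial iron and iron-sulfur clusters rose and 2 fell in Ep400 ko (14.3%, against 13.7% of all genes), and 0 were called in Kat5 ko.

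Of 17 tested heme genes, *Mfsd7b*, the former symbol of the heme exporter gene *Flvcr1*, rose in Ep400 ko by 0.61 (adjusted p = 0.0469 by edgeR), a call that was lost in all 7 fits without 1 library, with DESeq2's size factors, without a filter on low counts and in the fit of all libraries. The other 16 were not called, and the largest differences among them were those of *Abcg2*, a transporter of porphyrins (1.49, SE 0.50, in Kat5 ko) and of *Pgrmc1*, a heme-binding membrane protein (0.97, SE 0.41, in Ep400 ko). *Neo1*, a co-receptor in the hepcidin pathway, rose by 0.72 (adjusted p = 0.0264 by edgeR), so that 2 of 3 tested genes of export and hepcidin were called in Ep400 ko. Both were higher, where 8% of all genes were called higher, and *Heph* counts through the filter. The calls of *Slc25a37*, *Isca1* and *Neo1* held in 2, 1 and 3 of 7 such fits, while those of *Scara5*, *Steap1* and *Fdxr* held in all 7. *Isca1* was not called without the filter.

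None of the 3 tested genes for iron chaperones and storage was called in either knockout by edgeR. The same held for the 7 tested genes for sensing or with other iron-responsive elements. *Pcbp1*, which hands iron to ferritin, had log2-fold changes of 0.18 (SE 0.14) in Kat5 ko and −0.50 (SE 0.21) in Ep400 ko, and *Pcbp2* had 0.13 (SE 0.25) and −0.29 (SE 0.16). *Epas1*, the hypoxia factor HIF-2α, had −1.81 (SE 1.00) and 1.86 (SE 0.63), at levels of at most 6.05 CPM. *Cdc14a*, a phosphatase, had −0.25 (SE 0.26) and −0.45 (SE 0.22).

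**Figure D4:**
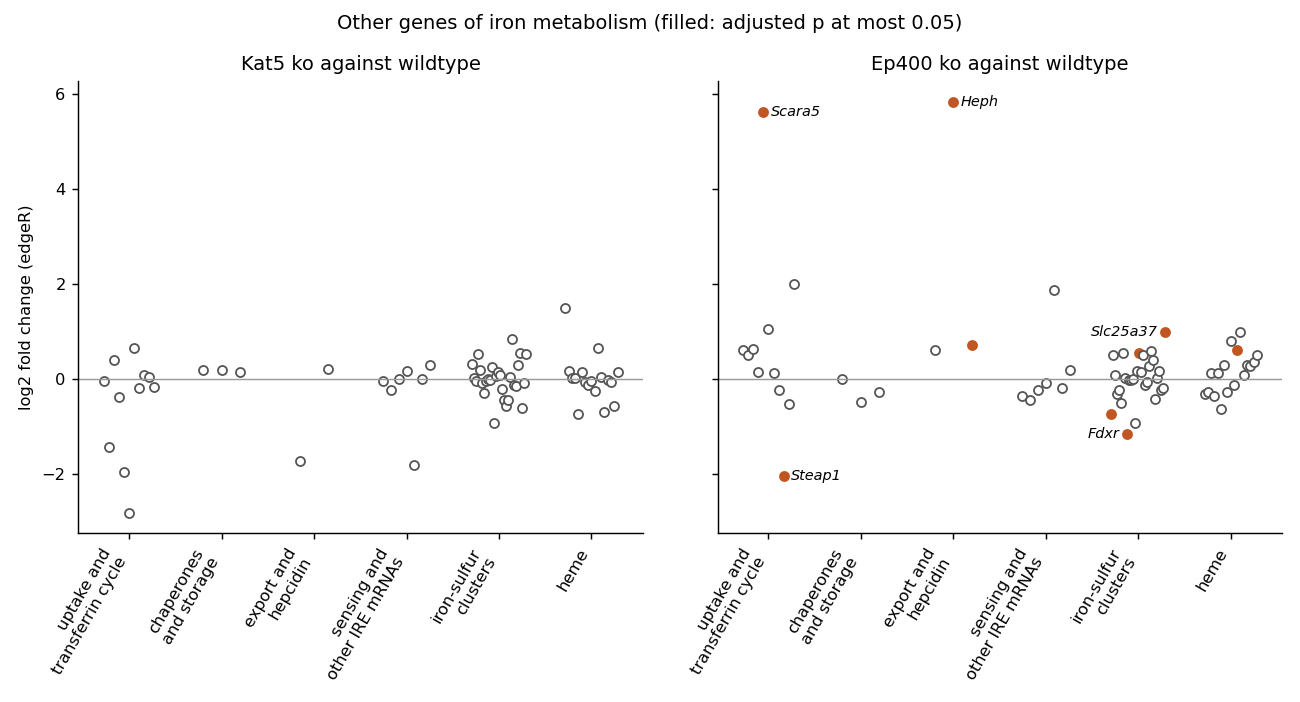
Log2-fold change (y axis) of the further iron genes tested, in 6 groups (x axis), in Kat5 ko (left) and Ep400 ko (right) against wildtype, each point a gene. Filled points were called by edgeR (adjusted p at most 0.05), and the 9 of them, from *Heph* at 5.83 to *Steap1* at −2.05, are all in Ep400 ko, *Heph* through the filter on low counts.

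Sequence shared with other genes limits what was counted for the light chain. Of the 50-base windows of *Ftl1* transcripts, 58.4% occur also in 17 other annotated genes, of which 15 are in the table. These took 148 to 566 reads per library together, at most 0.549% of their sum with *Ftl1*. For *Fth1*, 1.59% of windows are shared, with *Gm6977*, which took 1 to 16 reads. Windows of *Tfrc*, *Steap3*, *Slc40a1* and *Aco1* were not found in any other gene. For *Slc11a2*, 4.27% of windows occur in 515 other genes, of which 456 are in the table. These took 458173 to 792624 reads per library together, and how many came from shared windows was not tested. For *Ireb2*, 0.0314% of windows are shared, with *Sfi1* (580 to 3449 reads) and *Olfr1274-ps* (0 reads). *Slc11a2* overlaps *Gm5475* on the opposite strand, which had 0 to 4 reads.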

How the data were processed

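Raw counts of reads per gene were deposited by the authors for 10 libraries, made with a stranded kit for poly-A RNA. The submitters' processing notes name bcl2fastq 2.20, STAR 2.7.3, DESeq2 1.36.0, R 4.2.1 and the build mm10 without their roles. The counting program, its strand setting and the annotation are not given in the sources used here. The authors' normalized tables were not used.

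The counts were analysed in R 4.3.3 with edgeR 4.0.16 (filterByExpr, TMM, quasi-likelihood test, Benjamini-Hochberg adjustment over all tested genes), in a separate fit for each comparison. A gene was called at an adjusted p of at most 0.05. Robust moderation of the variance was adopted after a fit without it had been seen, to match the counts of calls in an earlier analysis of these data, and that fit is an alternative. DESeq2 1.42.0 and limma 3.58.1 (voom) were other alternatives. CPM used TMM factors over all 10 libraries. RPKM used the merged exons of GENCODE M21, in which 42462 of 43346 identifiers were found. Each wildtype sample is a separate sample and each knockout library a clone, and p-values measure the spread between them. The knockout clones were transfected, sorted and grown from single cells, which is not stated for the wildtype samples. Effects of the knockout and of this cloning therefore cannot be told apart. Total counts of 30968945 to 48301792 limit precision chiefly for *Slc40a1* and *Heph*. Counts of replicates were farther apart than sampling noise allows, with a chi-square of 28.1 to 258 per degree of freedom.

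The members and the lists were chosen with earlier results of these data known. The older symbols *Trf*, *Mfsd7b*, *Mfsd7c* and *Emr1* were added to the lists after the table had been seen. Named from the list of further genes were those called with a log2-fold change of 1 or more in either direction, the largest 2 per group and, after their values were seen, other called genes. Some genes of the list are not reported here. On simulated counts, 200 well-counted genes were given log2 changes of 2 up or down, with 1 dispersion for all genes and no deviant clone. Only calls with a log2-fold change of 1 or more and a mean count over 100 were scored. The edgeR fit recovered 193 with 6 false calls in the design of the Kat5 ko comparison (13434 genes). In that of Ep400 ko it recovered 198 with 6 (13836 genes). Smaller changes, scarcer genes and clones unlike their group were not simulated, so these rates do not carry over to the calls above.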

Additional observations from a re-analysis of the deposited data

Results flagged for a closer look

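Several genes differed between the knockouts themselves, tested by edgeR's quasi-likelihood test of the Ep400 ko against the Kat5 ko clones. Both changes from wildtype use the same wildtype samples. The log2 difference, Ep400 ko minus Kat5 ko, was −2.51 for *Tfrc* and 1.66 for *Fth1*, which were chosen from these contrasts, so that the values are a description. Of the 69 further genes tested, 6 were called (8.70%, against 7.05% of all genes), 5 of them higher in Ep400 ko and 1 lower. The log2 difference was 3.81 for *Slc22a17* (adjusted p = 0.0475 by edgeR) and −1.20 for *Fdxr* (adjusted p = 0.0423 by edgeR). Those of *Scara5*, 7.52, and *Heph*, 4.70, are descriptions, since both genes passed the filter on low counts only through the Ep400 ko clones. Both count among the 6 through this filter. For each of these 4, all Ep400 ko clones lay on 1 side of all Kat5 ko clones. With 1 library left out, the call of *Scara5* held in 4 of 6 fits, not without Kat5/3 or Ep400/3. Those of *Slc22a17* and *Fdxr* each held in 1 of 6, the fit without Kat5/1, and *Fdxr* was also not called with library size alone as scaling (−1.06). The other 2 were chosen after their values were seen. *Iscu*, the scaffold on which iron-sulfur clusters are assembled, was at 46.7 to 58.1 CPM in wildtype, 36.6 to 41.2 in Kat5 ko and 63.5 to 86.6 in Ep400 ko. Its difference was 0.90 (adjusted p = 0.0409 by edgeR). *Urod*, an enzyme of heme synthesis, was at 37.8 to 45.2, 25.3 to 33.6 and 49.0 to 55.1 CPM, with a difference of 0.88 (adjusted p = 0.0461 by edgeR). Both calls held only in the fit without Kat5/1 among the 6 with 1 library left out, and both were lost with the replicate block.

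Of the genes named in the report, 3 that were not called between the knockouts had every clone of one knockout on 1 side of the wildtype mean and every clone of the other knockout on the opposite side. The log2 difference was 1.37 for *Steap3*, −0.73 for *Pcbp1* and 3.62 for *Epas1*. These opposite directions were not tested as such. The direct comparison of the knockouts did not pass the threshold for *Pcbp1* (adjusted p = 0.0989 by edgeR). The value of *Epas1* is a description, since this gene passed the filter on low counts there only through the Ep400 ko clones.

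In 2 of the genes named, 1 wildtype sample was far from the other 3. *Cp* was at 180 CPM in wildtype sample 3, with a gap to the nearest sample of 0.971 of the whole range, and *Steap1* at 51.8 CPM in wildtype sample 2, with a gap of 0.981. Chance flags about 5% of groups.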

How the results depend on the processing

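The number of genes called depended strongly on tool and library, and the cause was not tested. Between Kat5 ko and wildtype it was 1475 with DESeq2, 286 without a filter on low counts, 27 in a fit of all 10 libraries and 1 (without wildtype sample 1) to 2654 (without Kat5/1) with 1 library left out. Between Ep400 ko and wildtype it was 3131 with DESeq2 and 804 to 2020 with 1 library left out. Between the knockouts it was 3067 with DESeq2, 1445 without the filter, 3555 in the fit of all libraries and 3 to 2537 with 1 library left out. Of the 9 members, 2 were called for Ep400 ko in the fit of all libraries, and between the knockouts 4 by DESeq2, by limma, without the filter and in the fit of all libraries. With 1 library left out, 0 to 3 (Kat5 ko), 2 to 4 (Ep400 ko) and 0 to 5 (between the knockouts) were called. Of the further iron genes, DESeq2 called 10, 16 and 17 in these comparisons, the fit of all libraries 16 between the knockouts, and fits without 1 library 0 to 9, 5 to 11 and 0 to 11. Robust moderation switched off, added after the data had been seen, left every count within 1.5 times. *Slc40a1* could not be fitted where the filter removed it.

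Replicate numbers did not pair the libraries (correlations of residuals −0.0957 to 0.223). With the replicate block, 0, 166 and 213 genes were called for Kat5 ko, Ep400 ko and between the knockouts, 0 members in both comparisons with wildtype, and 1 (Ep400 ko) and 2 (between the knockouts) of the further iron genes.

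Changes of sign touched values near 0 and *Cp*. For Kat5 ko, the log2-fold change of *Ftl1* was 0.0049 with DESeq2 and with DESeq2's size factors in edgeR, 0.021 in the fit of all libraries, 0.010 relative to its chromosome and −0.19 to 0.091 without 1 library. That of *Ncoa4* was 0.025 with the block and −0.16 to 0.11 without 1 library, that of *Aco1* −0.010 to 0.22, and that of *Pcbp2* −0.096 to 0.41. For Ep400 ko, *Slc11a2* was at −0.049 with the block and −0.081 to 0.17 without 1 library, and *Cp* at −0.49 to 1.85.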
